A study of Mus musculus with 6 samples.

Results

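The genes of the proteasome were taken from a mouse RNA-seq table of 32377 gene identifiers as all 49 protein-coding rows whose symbol begins with Psma, Psmb, Psmc, Psmd, Psme or Psmg followed by a digit, out of 17266 protein-coding rows. Of these, 48 encode subunits of the particle, its activators, a copy of an activator gene, or assembly chaperones. The other, Psmc3ip, encodes a meiotic recombination protein that carries a similar name, and is given apart. A further 3 matching symbols were not protein-coding and were left out.

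The study compared RNA from 3 libraries labelled TNFR2-deficient Treg with 3 labelled TNFR2-positive Treg. TNFR2 is a receptor for tumor necrosis factor, encoded by Tnfrsf1b, and Treg are regulatory T cells, a suppressive class of T cells. The labels give no strain, age, tissue, cell sort, allele or agent, and do not say whether the deficiency was genetic or a matter of which cells were collected. Nothing says that the libraries of a group came from separate animals or cultures, and a p-value here speaks only of how much these particular libraries vary, which could be technical variation alone.

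The proteasome is the barrel-shaped protease that destroys proteins tagged with ubiquitin. Its 20S core has an outer pair of alpha rings that gate the entrance and an inner pair of beta rings in which 3 kinds of beta subunit cut. The 19S regulator binds ubiquitin chains, unfolds the substrate with a ring of ATPases and feeds it into the core. Cells of the immune system and cells exposed to interferon replace the constitutive catalytic subunits (Psmb5, Psmb6 and Psmb7) by immune ones (Psmb8, Psmb9 and Psmb10), which changes the peptides offered on MHC class I. Cortical epithelial cells of the thymus use Psmb11 in the place of Psmb5.

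Total counts were 19296082 to 24038118 per library. Levels are given as CPM, counts scaled to a common library total and then between libraries by the trimmed mean of M-values (TMM), and log2 fold changes are deficient over positive, so a positive value means a higher level in the libraries labelled TNFR2-deficient. Tnfrsf1b was at 7.31 to 8.29 CPM in the libraries labelled TNFR2-deficient and 80.0 to 84.5 CPM in the others, the direction of the labels. The libraries labelled TNFR2-deficient Treg went against the cell type in their label: 9 Treg markers, Foxp3 among them, summed to 33.0 to 39.7 CPM there and 570 to 631 CPM in the TNFR2-positive libraries, and all 9 were lower. Markers of double-positive thymocytes, the CD4+ CD8+ stage of T cell development, summed to 3369 to 3460 CPM against 352 to 366 CPM, with 9 of 9 higher. Summed B cell markers were at 6149 to 6427 against 4745 to 4946 CPM (3 of 5 higher, 1 lower), macrophage and monocyte markers at 818 to 897 against 332 to 363 CPM (7 of 7 higher), and dendritic cell markers at 38.9 to 39.5 against 86.3 to 95.7 CPM (6 of 6 lower). Erythroid markers were at 17953 to 20502 against 4216 to 6984 CPM (6 of 6 higher), platelet markers at 13.6 to 16.0 against 4.60 to 5.14 CPM (4 of 4 higher), and neutrophil markers at 192 to 214 against 159 to 184 CPM (1 of 3 tested higher). These marker differences accompany every result that follows, and their part in them was not tested. In such bulk samples, fewer cells of a type and less RNA per cell cannot be told apart. TNFR2-positive library 1 stood apart from the other libraries of its group, with a chi-square per gene of 13.9 and 18.5 against them, where the other pairs within a group gave 2.43 to 4.44.

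Most proteasome genes were higher in the libraries labelled TNFR2-deficient. Of the 48, 46 had enough counts to be tested, and 38 rose, 4 fell and 4 were not called by edgeR's quasi-likelihood test at an adjusted p below 0.05. Among all 17022 genes tested, 35.1% were higher and 34.2% were lower, 69.3% in all. The median log2 fold change of the 46 genes was 0.40, with the middle 50% between 0.28 and 0.48, against 0.04 (-0.53 to 0.47) for all genes. Proteasome genes took 0.434% ± 0.00824 of the counts in the libraries labelled TNFR2-deficient and 0.356% ± 0.0190 in the others (SD, n = 3). In 42 of the 46 the groups did not overlap, with the libraries labelled TNFR2-deficient above in 38 and below in 4. This held for 74.5% of all genes tested, 38.2% with those libraries above and 36.3% with them below. Without TNFR2-positive library 1, 38 were higher and 4 lower, with a median of 0.34.

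**Figure D1:**
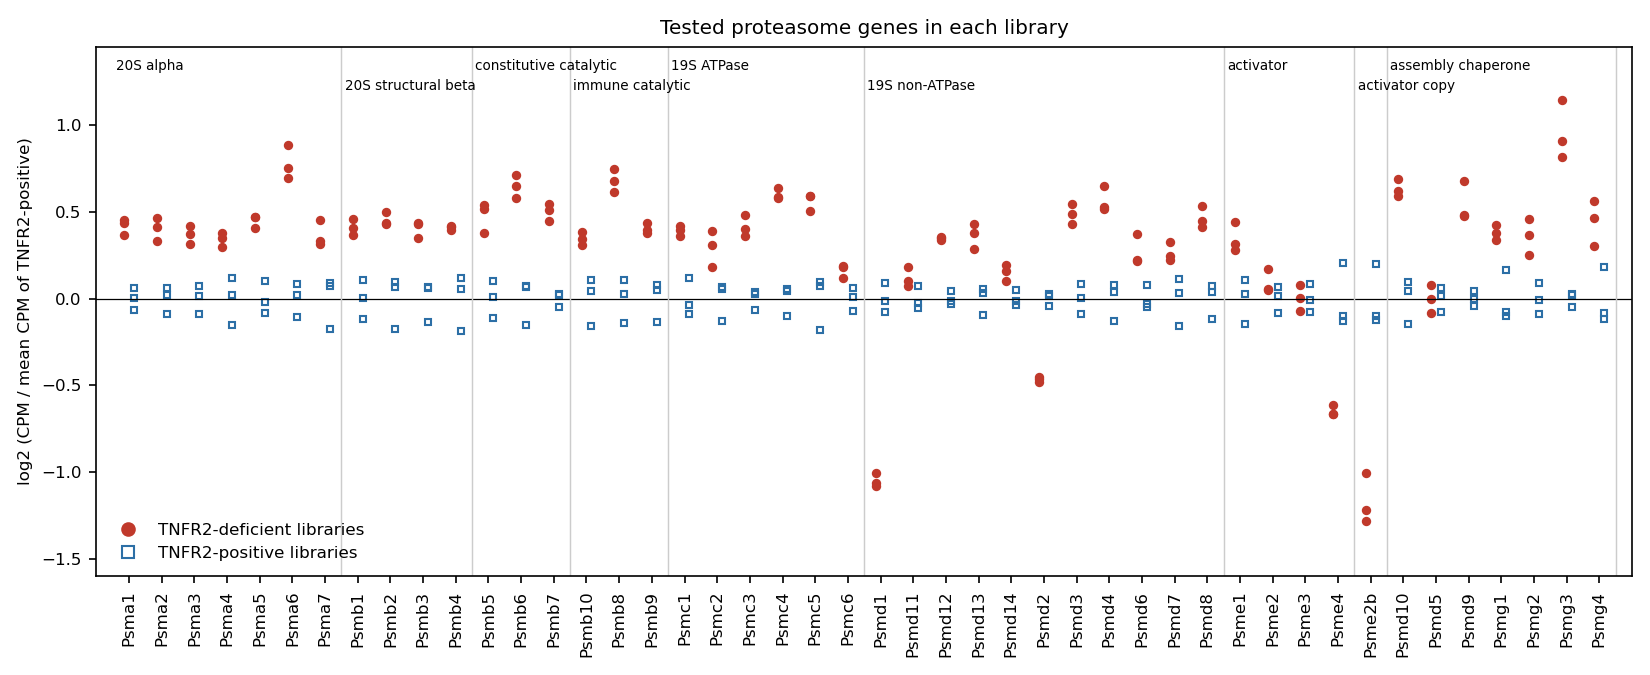
Level of each of the 46 tested proteasome genes in each library, as log2 of its CPM over the mean CPM of the 3 TNFR2-positive libraries, grouped by role; filled circles are TNFR2-deficient libraries and open squares TNFR2-positive ones. The 17 genes of the 20S core lie in a band above 0, while Psmd1, Psmd2, Psme4 and Psme2b lie below it.

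Other genes with short transcripts were also higher, by a median close to that of the proteasome genes in some length bins and not in others. The principal transcript, the annotation's main isoform of a gene, had a median length of 1408.5 bases in the 46 genes and 2877 bases in the 12957 tested genes that have one. Across those 12957 genes the log2 fold change fell with length (Spearman's rho = -0.454, across genes, which are not independent replicates), and across the 46 proteasome genes rho was -0.390. Among transcripts of 1001 to 1250 bases the median log2 fold change was 0.47 over 570 genes and 0.41 over the 9 proteasome genes. At 1501 to 2000 bases it was 0.36 over 1500 genes and 0.38 over 10 proteasome genes, and at 2501 to 3000 bases 0.07 over 1461 genes and 0.24 over 6. At 1251 to 1500 bases it was 0.43 over 667 genes and 0.56 over 7 proteasome genes. At 1 to 800 bases it was 0.43 over 775 genes and 0.45 over 3 proteasome genes. The medians were 0.52 over 369 genes and 0.41 over 6 proteasome genes at 801 to 1000 bases. At 2001 to 2500 bases they were 0.21 over 1475 genes and 0.33 over 2.

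**Figure D2:**
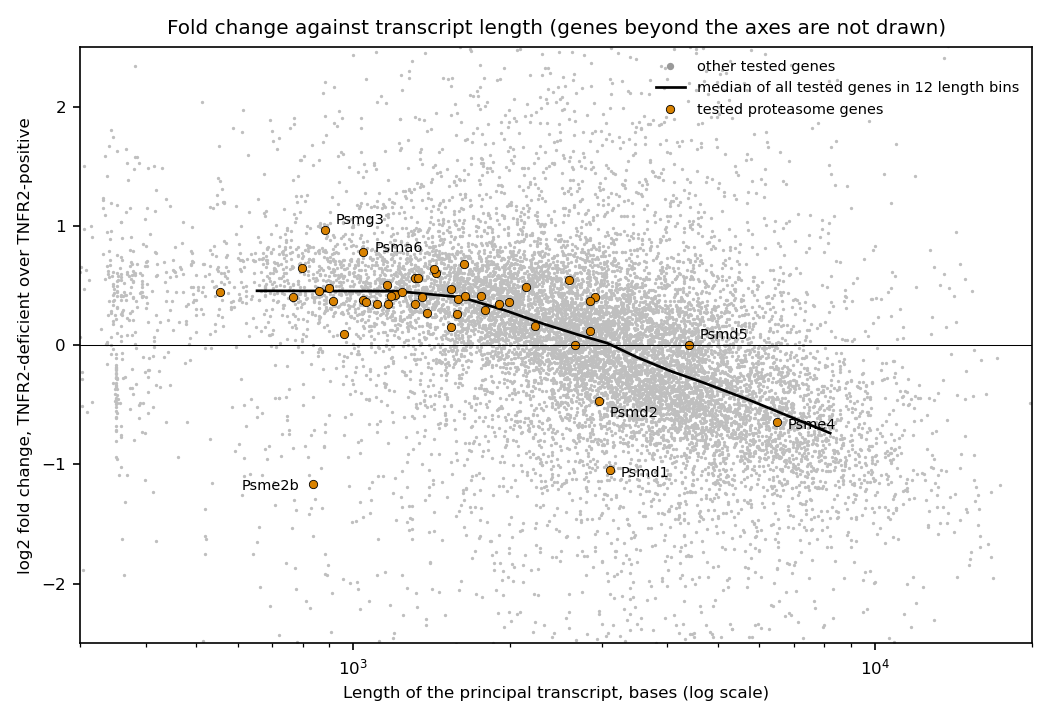
Log2 fold change of the tested genes (vertical) against the length of the principal transcript in bases (horizontal, log scale), with the median of all genes in length bins as a line and the 46 proteasome genes as large points. Most proteasome genes lie near the line, Psma6 and Psmg3 above it, and Psme2b, Psmd1 and Psmd2 below it.

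When each library's smooth relation to the length of the principal transcript was removed, 15 of the 46 genes were called higher and 6 lower, where 33.2% of the 12957 genes were higher and 33.7% lower. Their median log2 fold change was then 0.06, against 0.01 for all genes. With a relation to total exonic and intronic length removed instead, 30 were higher and 6 lower (38.2% and 29.7% of 16623 genes), with a median of 0.22 against 0.10. The first of these settings was chosen after the data had been seen. In all, 18 fits were run, including both length settings, other scalings, filters and tests, the replicate block and each library left out in turn. Of the 46 genes, 14 were called higher in every fit and 4 lower in every fit. For all tested genes no such count across the fits was made. Whether 14 and 4 of 46 exceed the share among other genes was therefore not tested. The 14 were Psma2, Psma3, Psma6, Psmb1, Psmb6, Psmb8, Psmc4, Psmc5, Psmd3, Psmd4, Psmd8, Psmd9, Psmd10 and Psmg3, and the 4 were Psmd1, Psmd2, Psme4 and Psme2b.

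**Figure D3:**
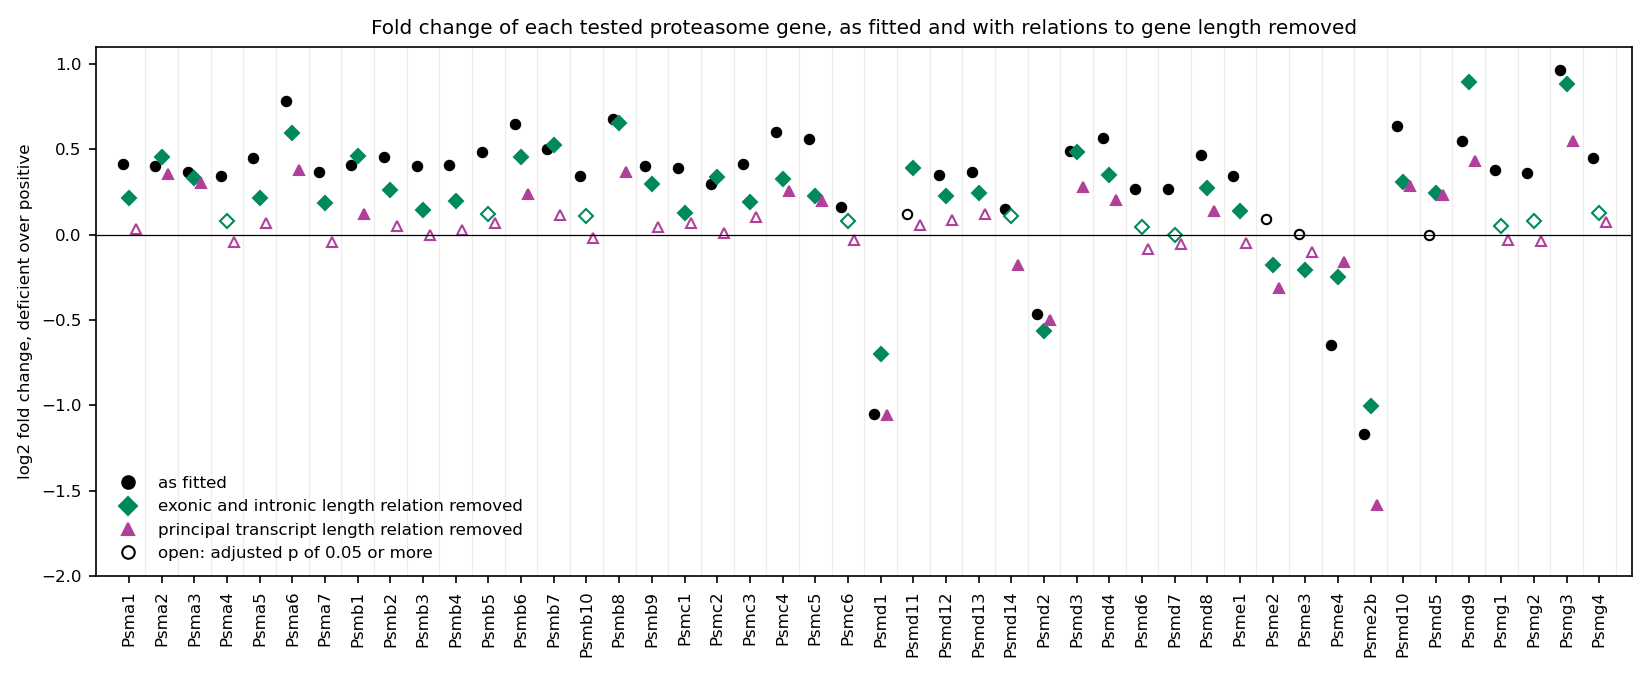
Log2 fold change of each tested proteasome gene as fitted (circles), with the relation to exonic and intronic length removed (diamonds), and with the relation to principal transcript length removed (triangles); open symbols have an adjusted p of 0.05 or more. With principal transcript length removed most of the 20S core moves to near 0, and the highest are Psmg3 at 0.55, Psmd9 at 0.43, Psma6 at 0.38, Psmb8 at 0.37, Psma2 at 0.36 and Psma3 at 0.30.

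The 6 catalytic genes of ordinary proteasomes were all called higher in the libraries labelled TNFR2-deficient, as were 35.1% of all genes tested. The greatest rise among the 6 was that of Psmb8, an immune one. Promoter sequence is shown for the 3 of them that have an entry in the RefSeq promoter table (mouse build GRCm38.p6) with bases free of annotated exons, so that the constitutive and immune genes can be compared. Each runs 5′ to 3′ along the gene's strand and starts 250 bases before the transcription start. Capitals mark a match to TGACNNNGC, the core of the antioxidant response element, to which the proteasome gene activator NRF1 and its relative NRF2 bind.
Psmb5, chr14:54618023-54618245, minus strand: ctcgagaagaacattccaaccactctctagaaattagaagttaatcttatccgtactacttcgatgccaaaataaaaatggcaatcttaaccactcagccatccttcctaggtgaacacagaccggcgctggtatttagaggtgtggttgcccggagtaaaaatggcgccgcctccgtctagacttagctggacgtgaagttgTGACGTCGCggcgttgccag
Psmb6, chr11:70525107-70525356, plus strand: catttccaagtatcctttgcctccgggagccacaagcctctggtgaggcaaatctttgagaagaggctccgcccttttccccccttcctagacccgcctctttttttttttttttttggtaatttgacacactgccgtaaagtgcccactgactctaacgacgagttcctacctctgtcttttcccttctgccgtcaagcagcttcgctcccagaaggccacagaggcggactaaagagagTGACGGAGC
Psmb10, chr8:105938445-105938642, minus strand: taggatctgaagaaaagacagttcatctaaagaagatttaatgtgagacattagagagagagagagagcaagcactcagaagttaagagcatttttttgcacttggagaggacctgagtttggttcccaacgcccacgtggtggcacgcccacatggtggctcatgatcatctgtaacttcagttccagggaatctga

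The match lay 47 to 39 bases before the start of Psmb5 and 9 to 1 bases before that of Psmb6, and none was found in the bases shown for Psmb10. Of the 48 genes, 40 had an entry. In the 250 bases before the start, on either strand, 5 of 40 (12.5%) held the antioxidant response element core, against 11.99% of 17492 promoters. The core of the interferon-stimulated response element, a pair of GAAA runs with 2 unspecified bases between them, was in 3 of 40 (7.5%) against 3.48%, the gamma-activated site TTCNNNGAA in 2 of 40 (5%) against 7.65%, and CCAAT in 14 of 40 (35%) against 39.5%. The 3 genes with the interferon element were Psmb3, Psmd4 and Psmd9, none of them catalytic, and Psmb8 was one of the 2 with the gamma-activated site. A match describes letters in the window and is not a measured binding site.

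Psmb5 (ENSMUSG00000022193) encodes the chymotrypsin-like subunit, which cuts after bulky hydrophobic residues. It was at 30.7, 34.4 and 33.8 CPM in TNFR2-deficient libraries 1 to 3 and 21.8, 23.8 and 25.3 CPM in TNFR2-positive libraries 1 to 3. Every library labelled TNFR2-deficient was above every TNFR2-positive one, and the log2 fold change was 0.48 (SE 0.08, adjusted p = 0.000166, edgeR). A limit applies to Psmb5: 57.1% of the 50-base windows of its transcript also occur in another annotated gene, and 49.4% of all its windows occur in the copy Gm3375. How the authors counted such reads is not given in the sources used here. Gm3375 itself was at 2.53 ± 0.393 CPM against 1.44 ± 0.225 CPM (SD, n = 3).

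Psmb6 (ENSMUSG00000018286), which encodes the caspase-like subunit, was at 77.6, 85.2 and 81.3 CPM against 46.8, 54.7 and 54.4 CPM. The groups did not overlap, and the log2 fold change of 0.65 (SE 0.07, adjusted p = 1.1e-05, edgeR) was the highest of the 3 constitutive genes. Psmb7 (ENSMUSG00000026750), for the trypsin-like subunit, was at 45.6, 46.8 and 43.7 CPM against 30.9, 32.6 and 32.5 CPM. The groups were again apart (log2 fold change 0.50, SE 0.06, adjusted p = 2.26e-05, edgeR).

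Psmb8 (ENSMUSG00000024338) encodes the immune counterpart of Psmb5. It was at 234, 256 and 245 CPM in the libraries labelled TNFR2-deficient and 139, 156 and 165 CPM in the others. No library of one group reached the range of the other, and Psmb8 was 1.60-fold higher (log2 fold change 0.68, SE 0.07, adjusted p = 6.45e-06, edgeR). Psmb9 (ENSMUSG00000096727), the counterpart of Psmb6, was at 106, 110 and 107 CPM against 74.3, 86.1 and 84.4 CPM. Its groups did not overlap either, with a smaller log2 fold change of 0.40 (SE 0.07, adjusted p = 0.000203, edgeR). Psmb10 (ENSMUSG00000031897), the counterpart of Psmb7, was at 69.8, 71.7 and 68.0 CPM against 49.3, 56.5 and 59.1 CPM. Its log2 fold change of 0.35 (SE 0.07, adjusted p = 0.00112, edgeR) was the lowest of the 6 catalytic genes, with the groups still apart. With principal transcript length removed, Psmb8 (0.37, adjusted p = 1.33e-05) and Psmb6 (0.24, adjusted p = 0.00124) were still called by edgeR's quasi-likelihood test, whereas Psmb5 (0.07), Psmb7 (0.11), Psmb9 (0.04) and Psmb10 (-0.02) were not. In that fit 33.2% of all genes were called higher.

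The immune and constitutive genes of a pair can be set against each other within a library, so that scaling between libraries plays no part. Per kilobase of principal transcript, the Psmb8 to Psmb5 ratio was 4.215, 4.118 and 4.003 in the libraries labelled TNFR2-deficient and 3.508, 3.621 and 3.600 in the TNFR2-positive ones. The Psmb9 to Psmb6 ratio went the other way, at 0.808, 0.765 and 0.779 against 0.938, 0.929 and 0.915. The Psmb10 to Psmb7 ratio was also lower, at 1.36, 1.36 and 1.38 against 1.41, 1.53 and 1.61. None of the 3 ratios overlapped between the groups. On the log2 scale the differences were 0.20 for Psmb8 to Psmb5, -0.24 for Psmb9 to Psmb6 and -0.15 for Psmb10 to Psmb7. A two-sided exact permutation test gave p = 0.1 for each ratio, the smallest that 3 libraries against 3 allow, and 0.1 after Benjamini-Hochberg adjustment over the 3. The signs were the same in each of the 18 fits, where the difference between the log2 fold changes of the pair was 0.18 to 0.53, -0.26 to -0.16 and -0.42 to -0.11 in that order. Most of these fits could hardly have changed a sign, since scaling between libraries plays no part. Under other scalings, filters and tests the Psmb8 to Psmb5 difference was 0.198 to 0.200. Only the length settings and the left-out libraries moved the differences by much.

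**Figure D4:**
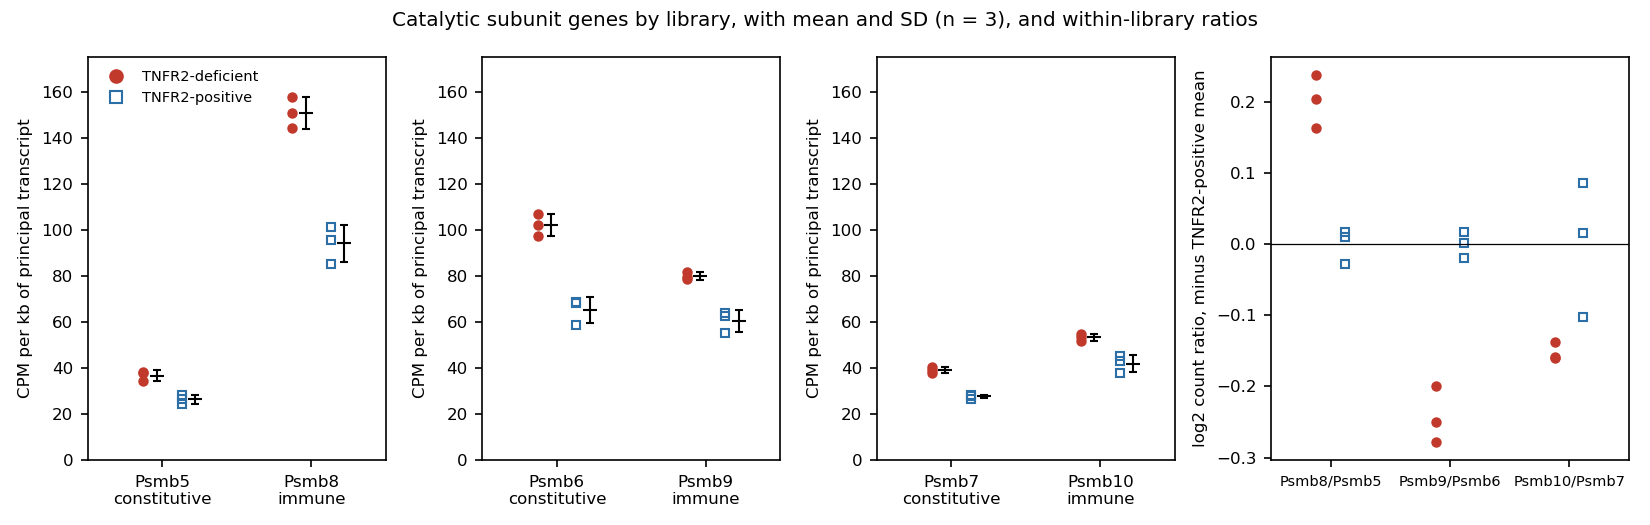
The first 3 panels give CPM per kb of principal transcript of the constitutive and immune catalytic genes in each library, with the mean and SD of 3 libraries beside the points; the last gives log2 ratios of immune to constitutive counts minus the TNFR2-positive mean. All 6 genes are higher in the libraries labelled TNFR2-deficient, while the Psmb8/Psmb5 ratio is above 0 and the other 2 ratios are below it.

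The immune share of the catalytic genes differed little, by -0.740 percentage points (deficient minus positive, not tested). Per kilobase, Psmb8, Psmb9 and Psmb10 made up 61.8%, 61.3% and 61.4% of the summed level of the 6 genes in the libraries labelled TNFR2-deficient, and 61.9%, 62.2% and 62.7% in the TNFR2-positive ones. The groups were apart by a narrow margin, with means of 61.5% ± 0.239 and 62.2% ± 0.403 (SD, n = 3). With the union of all annotated exons as the length they overlapped, at 61.0%, 60.3% and 60.2% against 60.7%, 61.2% and 61.5%, a difference of -0.629 percentage points. The level of a ratio depends on the length assigned to each gene: with the union of all annotated exons, the TNFR2-positive ratios were 1.72, 0.804 and 3.44 in place of 3.58, 0.927 and 1.52, while the log2 differences of the ratios between groups do not depend on it.

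Psmb11 (ENSMUSG00000072423), the thymic catalytic gene, was near the floor in all libraries. It had 1, 2 and 5 counts in the libraries labelled TNFR2-deficient and 3, 2 and 0 in the TNFR2-positive ones, and did not pass the filter. Summed over a group this is 0.115 CPM (exact Poisson 95% interval 0.0495 to 0.226) against 0.0780 CPM (0.0253 to 0.182), where the intervals cover counting error only. A difference was not detectable at this depth. Markers of cortical thymic epithelium, the cells that make Psmb11, summed to 105 to 115 CPM against 68.9 to 84.2 CPM, with 1 higher and 2 lower of 6 tested. Most of that sum in the libraries labelled TNFR2-deficient was Ctsl, a protease gene also expressed by macrophages, at 67.3 to 77.6 against 12.5 to 14.7 CPM, and the other 9 markers summed to 33.3 to 37.6 against 55.7 to 71.8 CPM, the opposite direction. Most of this second sum was Ly75, at 19.7 to 24.7 against 41.2 to 56.9 CPM. Which cells either sum came from was not tested, and all 6 dendritic cell markers were lower in the same libraries. Dll4 was lower too, with means of 0.187 against 2.04 CPM. Krt8 (0.320 against 0.0482), Krt18 (0.592 against 0.117) and Prss16 (1.52 against 0.998 CPM) were higher without overlap, at low levels. Krt8 and Krt18 were not tested and Prss16 was not called. The groups of Ccl25, Epcam and Enpep overlapped. Foxn1, the factor that defines thymic epithelium, had at most 3 counts in every library. Markers of medullary thymic epithelium were at 7.08 to 8.20 against 1.03 to 1.58 CPM, with 1 of 2 tested higher. The higher one, Cldn4, made up most of the sum in the libraries labelled TNFR2-deficient, at 5.74 to 6.49 against 0.0511 to 0.327 CPM. Aire, the other one tested, had means of 1.15 against 1.09 CPM and was not called (adjusted p = 0.790, edgeR). Krt5 and Fezf2 had at most 3 counts in every library.

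The rest of the 20S core rose too. All 7 alpha genes and all 4 structural beta genes were called higher, which with the 6 catalytic genes makes 17 of 17, against 35.1% of all genes tested. The log2 fold changes of the 17 were 0.34 to 0.78, with an SD across genes of 0.12. Across all genes tested, which ran from -7.95 to 10.7, the SD was 1.28. Those genes were not matched to the core in level or transcript length. Psma6 (ENSMUSG00000021024), an alpha ring gene, had the greatest rise of the core: it was at 137, 150 and 131 CPM against 75.2, 82.1 and 85.9 CPM. The libraries labelled TNFR2-deficient stood well clear of the others, 1.72-fold higher (log2 fold change 0.78, SE 0.07, adjusted p = 2.07e-06, edgeR). Psma4, another gene of the alpha ring, had the smallest, at 116, 114 and 110 CPM against 80.5, 90.6 and 97.3 CPM. Its groups still did not overlap (log2 fold change 0.34, SE 0.07, adjusted p = 0.00122, edgeR). Of its 50-base windows 31.5% occur in another gene, most of them in the copy Gm6542, which was at 2.66 ± 0.176 and 2.69 ± 0.368 CPM. Among the beta subunits that do not cut, Psmb3 (0.40) and Psmb2 (0.46) were the extremes, and Psmb3 and Psma5 shared 55.8% and 55.4% of their windows with other genes. With principal transcript length removed, 6 of the 17 core genes were called higher by edgeR and the other 11 were not called. Of all 12957 genes in that fit, 33.2% were called higher and 33.7% lower.

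The 6 ATPases of the 19S base, which unfold substrates, all rose as well, where 35.1% of all genes tested were called higher. With principal transcript length removed 2 of the 6, Psmc4 (0.26) and Psmc5 (0.20), were called higher, against 33.2% of all genes. Psmc4 (ENSMUSG00000030603) was at 108, 112 and 108 CPM against 67.0, 74.7 and 74.2 CPM. This was the greatest rise of the ring, with no overlap (log2 fold change 0.60, SE 0.06, adjusted p = 5.5e-06, edgeR). Psmc6 (ENSMUSG00000021832) was at 111, 106 and 111 CPM against 98.7, 93.2 and 102 CPM. Its groups were close together (log2 fold change 0.16, SE 0.06, adjusted p = 0.0288, edgeR), and it was called in 10 of the 18 fits.

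The 11 non-ATPase genes of the 19S regulator held the sharpest contrast: 8 rose, 2 fell and Psmd11 was not called (0.12, adjusted p = 0.104, edgeR). Of all genes tested, 35.1% were called higher and 34.2% lower. With principal transcript length removed 3 of the 11 were higher and 3 lower, against 33.2% and 33.7% of all genes. Psmd1 and Psmd2 encode the largest subunits of the base, which dock ubiquitin carriers and deubiquitinating enzymes. Psmd1 (ENSMUSG00000026229) was at 37.0, 35.1 and 35.5 CPM in the libraries labelled TNFR2-deficient and 78.9, 70.1 and 73.4 CPM in those labelled TNFR2-positive. It was thus 2.07-fold lower, with a wide gap between the groups (log2 fold change -1.05, SE 0.07, adjusted p = 9.34e-08, edgeR). Psmd2 (ENSMUSG00000006998) was at 115, 117 and 116 CPM against 163, 161 and 155 CPM. Here too the groups were apart, with the libraries labelled TNFR2-deficient lower (log2 fold change -0.46, SE 0.06, adjusted p = 1.66e-05, edgeR).

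The transcripts of Psmd1 and Psmd2, of 3112 and 2961 bases, are among the longest of the 46 genes. They are close to the median of 2877 bases over all 12957 genes. With principal transcript length removed, Psmd1 was at -1.06 (adjusted p = 1.98e-10, edgeR) and Psmd2 at -0.50 (adjusted p = 1e-07, edgeR). In total exonic length Psmd1 is long, at 7265 bases against a median of 3509 over all genes, and Psmd2 has 4038. With exonic and intronic length removed, Psmd1 was at -0.70 (adjusted p = 1.93e-08, edgeR) and Psmd2 at -0.56 (adjusted p = 4.98e-08, edgeR). Psma2, of similar transcript length at 2911 bases, was at 0.40 as fitted. It was at 0.36 with principal transcript length removed and 0.45 with exonic and intronic length removed. Of the windows of Psmd2, 26.4% occur in another gene, chiefly the copy Gm5422, which itself was lower, at 0.795 ± 0.332 against 2.54 ± 0.559 CPM (SD, n = 3). At the other end was Psmd4 (ENSMUSG00000005625), a ubiquitin receptor, at 135, 147 and 134 CPM against 85.7, 96.3 and 98.9 CPM. It had the greatest rise of the 11, with no overlap (log2 fold change 0.57, SE 0.07, adjusted p = 2.13e-05, edgeR). Psmd14, the deubiquitinating enzyme of the lid, was called higher as fitted (0.15, adjusted p = 0.0361, edgeR) and lower with principal transcript length removed (-0.18, adjusted p = 0.00362, edgeR), the only one of the 46 to be called both ways.

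The activators, which open the core without ubiquitin or ATP, did not move together. Psme1 and Psme2 encode the partners of one interferon-inducible ring. Psme1 (ENSMUSG00000022216), with the highest level per kilobase of all 48 genes in both groups (245 ± 14.8 and 193 ± 16.8 CPM per kb), was at 266, 291 and 260 CPM against 194, 218 and 230 CPM. The groups did not overlap (log2 fold change 0.35, SE 0.07, adjusted p = 0.00133, edgeR). Psme2 (ENSMUSG00000079197) was at 104, 113 and 104 CPM against 94.4, 105 and 101 CPM. Its groups overlapped (log2 fold change 0.09, SE 0.06, adjusted p = 0.205, edgeR). Psme2 was called lower under both length settings, at -0.18 with exonic and intronic length removed (adjusted p = 0.00619, edgeR) and -0.31 with principal transcript length removed (adjusted p = 2.91e-05, edgeR). Psme1 was at -0.05 in the latter and was not called.

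Psme2b (ENSMUSG00000078153), an intronless copy of Psme2, was at 21.4, 25.8 and 22.3 CPM against 59.6, 47.7 and 48.4 CPM. It was 2.24-fold lower in the libraries labelled TNFR2-deficient, the greatest fall of the 48 (log2 fold change -1.17, SE 0.10, adjusted p = 1.24e-06, edgeR). The values of this pair are uncertain, since 68.7% of the 50-base windows of Psme2b occur in Psme2 and 59.3% of those of Psme2 occur in Psme2b. Their sum does not depend on how shared reads were split between them. It would still depend on shared reads that were discarded or counted for both genes, and how these were handled is not given. As counted, the sum was 125, 138 and 126 CPM against 154, 152 and 150 CPM. With this limit, the summed pair was lower in every library labelled TNFR2-deficient, with means of 130 ± 7.36 and 152 ± 2.25 CPM (SD, n = 3). Psme2b made up 17.8% ± 0.789 of the pair's counts in the libraries labelled TNFR2-deficient and 34.1% ± 3.999 in the others.

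Psme3 (ENSMUSG00000078652), which encodes the nuclear activator ring, was at 174, 156 and 165 CPM against 174, 156 and 164 CPM. The 2 ranges nearly coincided (log2 fold change 0.00, SE 0.07, adjusted p = 0.968, edgeR). Psme4 (ENSMUSG00000040850), for the large single-chain activator known for acetylated histones, was at 76.5, 73.8 and 73.8 CPM against 135, 109 and 107 CPM. It fell in the libraries labelled TNFR2-deficient (log2 fold change -0.65, SE 0.09, adjusted p = 3.47e-05, edgeR), with TNFR2-positive library 1 the highest, and was at -0.53 without that library. Psme4 has the longest principal transcript of the 46 genes, at 6491 bases, and the median of all 886 genes of 6001 to 8000 bases was -0.59. With principal transcript length removed its log2 fold change was -0.16 (adjusted p = 0.0094, edgeR). With exonic and intronic length removed it was -0.25 (adjusted p = 0.000704, edgeR).

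The assembly chaperones build the particle and leave it when it is finished. Of 7, 6 rose and Psmd5 was not called, where 35.1% of all genes tested were called higher. With principal transcript length removed 4 of the 7 were called higher and 0 lower, against 33.2% and 33.7% of all genes. Psmg3 (ENSMUSG00000029551), which helps to form the alpha ring, was at 6.39, 8.02 and 6.81 CPM against 3.51, 3.68 and 3.69 CPM. It had the greatest rise of all 48 genes, 1.95-fold, at a low level (log2 fold change 0.96, SE 0.14, adjusted p = 6.19e-05, edgeR). Psmd5 (ENSMUSG00000026869), a chaperone of the 19S base, was at 42.2, 47.3 and 44.7 CPM against 42.4, 45.1 and 46.7 CPM. Its groups overlapped throughout (log2 fold change 0.00, SE 0.07, adjusted p = 0.998, edgeR). It was called higher under both length settings, at 0.24 for exonic and intronic length and 0.23 for the principal transcript (adjusted p = 0.00775 and 0.0103, edgeR). The other chaperones of the base, Psmd9 and Psmd10, rose by 0.55 and 0.64 on the log2 scale. The remaining alpha ring chaperones, Psmg1, Psmg2 and Psmg4, rose by 0.38, 0.36 and 0.45 as fitted and were not called with principal transcript length removed.

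Psma8 (ENSMUSG00000036743), the alpha subunit of the testis, had 6, 3 and 6 counts against 4, 2 and 2 and did not pass the filter. Summed over a group this was 0.215 CPM (exact Poisson 95% interval 0.120 to 0.355) against 0.125 CPM (0.0539 to 0.246), with overlapping intervals. Male germ cell markers summed to 1.53 to 1.91 against 0.664 to 1.16 CPM, with 1 of 2 tested higher. Psmc3ip, the recombination protein, was at 8.34, 8.02 and 5.52 CPM against 3.12, 4.09 and 4.07 CPM (log2 fold change 0.96, SE 0.18, adjusted p = 0.000528, edgeR). Fam192a, also named Psme3ip1, encodes a partner of the Psme3 activator and lies outside the symbols used here. It rose from 49.2 ± 1.26 to 64.9 ± 1.58 CPM (SD, n = 3, log2 fold change 0.40, adjusted p = 7.41e-05, edgeR).

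Genes that act with the proteasome were taken from 4 fixed lists. Their counts stand beside 35.1% of all tested genes called higher and 34.2% called lower. Of 16 factors that assemble, cap, load or import the particle, 9 rose and 2 fell, with a median log2 fold change of 0.31. The smallest adjusted p values belonged to Ube3c, a ubiquitin ligase that extends chains on the particle (-0.76, adjusted p = 1.61e-06), and Akirin2, which brings proteasomes into the nucleus (0.68, adjusted p = 1.82e-06, both edgeR). They were at -0.43 and 0.32 with principal transcript length removed. Of 10 genes for the control of proteasome genes by NRF1, 1 rose and 4 fell, with a median of -0.04 (2 rose and 3 fell under upper-quartile scaling, with a median of 0.01). Ddi2, the protease that activates NRF1, was lower by edgeR's test (log2 fold change -0.99, adjusted p = 8.07e-07), and Nploc4, a cofactor of the ATPase that pulls NRF1 from the membrane, was lower too (-0.53, adjusted p = 8.47e-06, edgeR). They were at -0.29 and -0.34 with principal transcript length removed. Nfe2l1, the gene of NRF1, was at -0.11 (adjusted p = 0.129, edgeR) as fitted and was called higher with principal transcript length removed (0.16, adjusted p = 0.00762, edgeR). With exonic and intronic length removed it was at -0.08 and was not called (adjusted p = 0.187, edgeR).

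Among the 3 ubiquitin genes reported, 2 rose and 1 fell, with a median of 0.37 (1 and 1, with a median of -0.03, with principal transcript length removed). Uba1, the main ubiquitin-activating enzyme, was lower (log2 fold change -0.51, adjusted p = 8.06e-06, edgeR), and Ubb, a polyubiquitin gene, was higher (0.46, adjusted p = 6.46e-05, edgeR). They were at -0.33 and 0.12 with principal transcript length removed. Among the 8 genes reported of interferon control and peptide loading, which act beside the immune catalytic subunits, 2 rose and 3 fell, with a median of 0.09. Under upper-quartile scaling 4 rose and 3 fell, and with principal transcript length removed 1 rose and 4 fell, with a median of -0.16. Without TNFR2-deficient library 1 or library 2, 1 rose and 3 fell. Nlrc5, the activator of MHC class I genes, had the greatest fall (log2 fold change -1.54, adjusted p = 9.26e-09, edgeR), and Erap1, which trims peptides, came next (-1.18, adjusted p = 1.17e-06, edgeR). They were at -0.97 and -0.78 with principal transcript length removed. The transporter gene Tap2 rose by 0.49, and Irf1 fell by 0.21, while Psmb8, Psmb9 and Psmb10 all rose. Tap1, which shares 12.5% of the windows of its neighbour Psmb9, was at 0.16 (adjusted p = 0.0661, edgeR).

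**Figure D5:**
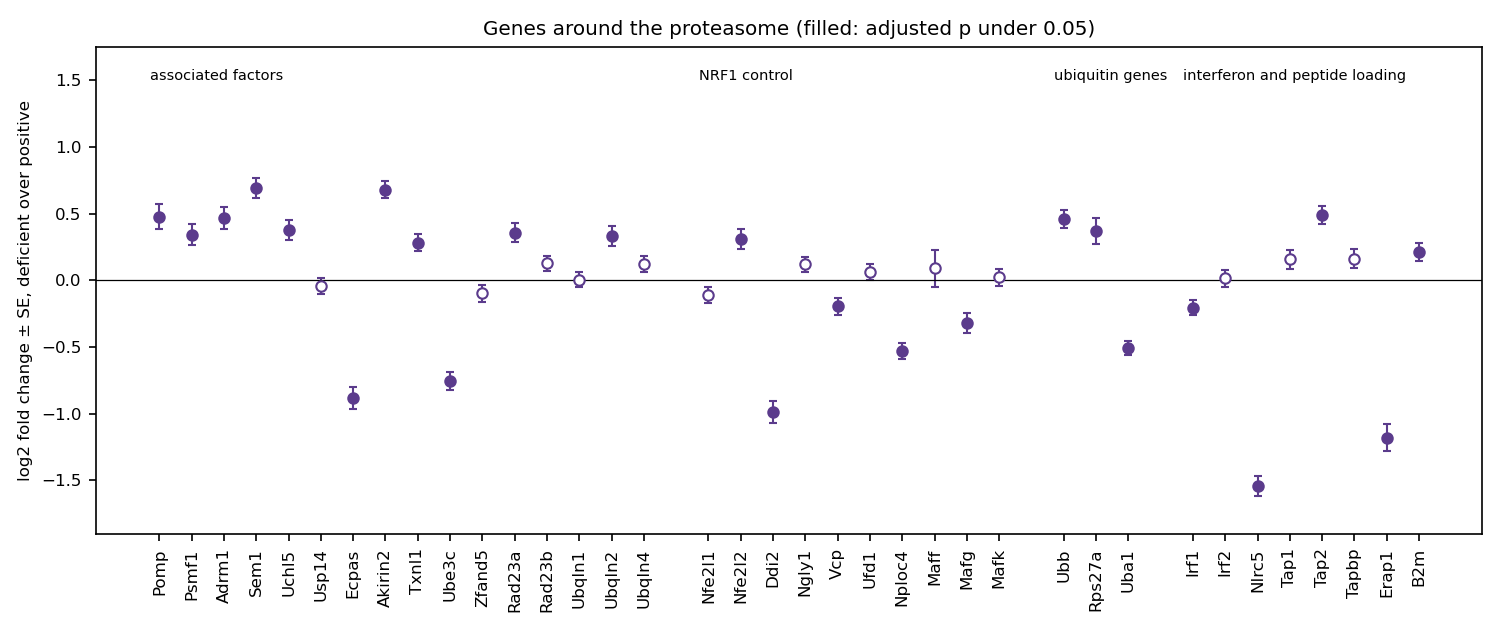
Log2 fold change with its standard error for each gene reported of the 4 lists of genes that act with the proteasome; filled circles have an adjusted p below 0.05. Nlrc5, Erap1 and Ddi2 are the lowest, and Sem1, which encodes a small subunit of the 19S lid, is the highest.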

How the data were processed

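The authors deposited a table of whole-number read counts, not normalized, with 1 row per gene and 1 column for each of the 6 libraries. Per the labels' protocols, RNA was extracted with TRIzol, and libraries were made from oligo-dT captured, fragmented mRNA with a PCR step. No molecular identifiers are mentioned. HISAT2 2.1.0 and build GRCm39 are named per the submitters' processing notes. Which program counted the reads, with which annotation and strand setting, and what became of multi-mapped reads is not given in the sources used here.

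Of the 32377 identifiers, 30529 had a symbol in the supplied table of gene names. Lengths, biotypes and shared windows came from GENCODE M21, which is of an older build, and promoters from RefSeq on GRCm38.p6, so no coordinate of the count table's build is given. The quasi-likelihood test of edgeR 4.0.16 (glmQLFit, glmQLFTest) was run in R 4.3.3 after filterByExpr and TMM scaling, with all 6 libraries and the group as the only term. Benjamini-Hochberg adjustment covered all 17022 genes that passed the filter, the threshold was 0.05, and the common biological coefficient of variation was 7.62%. The scripts were tested on simulated data. Ratios within a library used counts with 0.5 added and a two-sided exact permutation test. Length relations were removed by offsets from a spline with 4 degrees of freedom in each library. Levels per kilobase used the principal transcript. Alternatives were other scalings, filters and tests (limma-voom 3.58.1 and DESeq2 1.42.0), length settings, the replicate block and each library left out in turn.

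Described one by one were the 7 catalytic genes and, in each role, the tested genes with the highest and lowest log2 fold change, and in each of the 4 lists of related genes the 2 with the smallest adjusted p. Other genes given values were chosen after these had been seen. The proteasome genes and the lists were chosen with earlier results of these data known. Of the 17 associated factors, 16 were matched to a symbol, and Paaf1 was not analysed here. Some genes of the lists are not reported here, and the lists' counts leave them out.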

Additional observations from a re-analysis of the deposited data

How the results depend on the processing

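For the proteasome genes, the counts of genes called higher and lower stayed within 1.5 times the reported 38 and 4 in every setting run but one. That one, removal of the relation to principal transcript length, was added after seeing the data. It left 15 higher and a median log2 fold change of 0.063, against 0.39 when the same 12957 genes were fitted with no removal, and removal of exonic and intronic length gave a median of 0.22. Leaving out each library in turn gave 35 to 38 genes higher, 4 lower and a median of 0.34 to 0.42. DESeq2, limma-voom and the other scalings and filters gave 36 to 39 higher and 4 lower. With principal transcript length removed, log2 fold changes turned negative for 13 of the 46 genes: Psmb10 (-0.020), Psma4 (-0.044), Psma7 (-0.041), Psmb3 (-0.0035), Psmc6 (-0.031), Psmd6 (-0.086), Psmd7 (-0.055), Psmd14 (-0.18), Psme1 (-0.047), Psme2 (-0.31), Psme3 (-0.099), Psmg1 (-0.028) and Psmg2 (-0.034). Psme2 was at -0.18 with exonic and intronic length removed, and was called lower under both length settings. Psmd5, at 0.00 as reported, was at -0.032 with RLE scaling, -0.032 with DESeq2, -0.014 with library size only, -0.027 with at least 10 counts in every sample, -0.0060 among genes with a principal transcript, and -0.050 to 0.035 with a library left out, and was called higher at 0.24 and 0.23 under the exonic and intronic and the principal transcript length settings. The cause of these shifts was not tested. The calls of Psmc6 and Psmd14 were lost under RLE scaling, under DESeq2 and with some libraries left out, and that of Psmd7 (adjusted p = 0.0509, edgeR) without TNFR2-deficient library 3. The labels do not say whether the replicate numbers pair the libraries. Deviations of same-numbered libraries correlated at 0.0372, 0.0540 and -0.0611, and those of differently numbered ones at -0.109 to 0.0762. Such values show no pairing but cannot exclude one of small effect. With the replicate number as a block, 38 proteasome genes were higher and 4 lower, Psmd5 was at -0.00088, and the exact p of each catalytic ratio was 0.25, the smallest that 3 pairs allow. Psmb11 and Psma8 were too low to test at this depth, where 3 counts correspond to 0.125 to 0.155 CPM.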

Other observations

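The RNA levels of the proteasome genes per kilobase of principal transcript were spread widely in both groups. In the TNFR2-positive libraries the 20S core ran from Psmb5, at 26.3 ± 1.93 CPM per kb, to the alpha ring gene Psma7, at 99.1 ± 9.80 CPM per kb (SD, n = 3). In the libraries labelled TNFR2-deficient Psmb5 was again the lowest, at 36.7 ± 2.21 CPM per kb, with the limit that 57.1% of its windows occur in another gene, and the immune gene Psmb8 was the highest, at 151 ± 6.77 CPM per kb. The 19S regulator had Psmd1 as its lowest gene in both groups, at 11.5 ± 0.315 CPM per kb in the libraries labelled TNFR2-deficient and 23.8 ± 1.43 in the others. Its highest was the ubiquitin receptor gene Psmd4, at 104 ± 5.32 and 70.3 ± 5.25 CPM per kb. The chaperone Psmg3 was the lowest of the 46 tested genes, at 8.01 ± 0.959 and 4.11 ± 0.116 CPM per kb.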
